A study of Mus musculus with 3 samples.

Results

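Cytosolic ribosomal proteins are the protein subunits of the ribosome of the cytoplasm, and their transcripts were followed in macrophages sorted from injured mouse lung. LysM-GFP mice on the C57BL/6 background, 6 to 8 weeks old, in which the lysozyme M locus drives a green fluorescent protein in myeloid cells, inhaled nebulised lipopolysaccharide (LPS), a bacterial cell wall component, from a saline solution of 1 mg/ml. GFP+ Ly6g- CD64+ cells were sorted at 0, 4 and 24 h and 1 library was made per time point, so no difference has a replicate check and no test was run. The same treatment text is given at every time, so it is not known whether the mice at 0 h had inhaled LPS. All values are for bulk RNA, in which fewer cells of a type and less RNA per cell cannot be told apart, and the number of animals behind a library is not stated.

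Members were the genes whose symbol is Rpl or Rps followed by a digit, with Rplp0, Rplp1, Rplp2 and Rpsa, leaving out the S6 kinases and symbols marked as pseudogenes. The rule found 84 of 12880 genes, of which 50 encode proteins of the large subunit or their paralogs and 33 those of the small subunit. Of a list of 77 core subunits, 76 had a value (45 large, 31 small), and Rpl26 had none. There were 7 paralogs (Rpl3l, Rpl7l1, Rpl22l1, Rpl36al, Rpl39l, Rps27l and Rps4y2), and 1 member, Rps19bp1, encodes a binding partner of the Rps19 protein that is not a subunit. Rps4y2 lies where RefSeq places Rps4l, a transcribed pseudogene. A value in all 3 libraries was found for 82 members, and Rpl30 and Rpl36a had none at 0 h. The mean over libraries was at least 100 normalized reads for 67 members and lower for 17. In 5 cases the deposited description and location are those of another gene. Among these, Rpl35, Rpl7a and Rpl23 carry those of Rpl35a, Rpl7 and Mrpl23, and Rps27a is a further case, and all are reported under the deposited symbol.

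The ribosome has a small subunit, which holds the messenger RNA and decodes it, and a large subunit, which joins amino acids at its peptidyl transferase centre and releases the chain through an exit tunnel. In mammals nearly all ribosomal protein messages start with a terminal oligopyrimidine (TOP) run, a C followed by a stretch of C and T bases, through which the kinase complex mTORC1 and the binding protein LARP1 set their translation together. Their genes have also left many processed pseudogenes in mammalian genomes, so that short reads from the messages can fit several places. Some subunits have known roles outside the ribosome, such as RPL13A in silencing inflammatory messages and RPS3 as a partner of NF-kB.

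How much of each message is distinct was measured first, because the sources used here do not say how reads with several matches were handled. Each coding sequence in GENCODE vM21 (GRCm38, which is mm10) was cut into overlapping words of 50 bases, and the share of words found in the transcripts of no other annotated gene was counted. Rps4y2 has no annotated coding sequence there, so its whole transcript was used, here and for levels per kilobase. The middle word of 6 members shows the range, since Rpl8 and Rps3 have words held by no other gene while those of the other 4 are shared, mostly with pseudogenes. The letters are given 5′ to 3′ in the coding sense, in lower case throughout because the whole word is what is compared.
Rpl8: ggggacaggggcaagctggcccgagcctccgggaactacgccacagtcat
Rps3: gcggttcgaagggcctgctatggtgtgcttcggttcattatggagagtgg
Rps29: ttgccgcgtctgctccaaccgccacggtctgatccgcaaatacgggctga
Rps12: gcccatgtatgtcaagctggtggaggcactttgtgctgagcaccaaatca
Rpl23a: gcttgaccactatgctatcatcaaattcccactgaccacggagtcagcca
Rpl38: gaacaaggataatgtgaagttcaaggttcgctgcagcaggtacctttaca

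The Rpl8 word lies at chr15:76904898-76904947 (plus strand, exon 4). The Rps3 word spans chr7:99480025-99481707 (minus strand, exons 4 and 5 with the intron between them). The Rps29 word spans chr12:69158714-69158999 (minus strand, exons 1 and 2 with the intron between them) and is also held by 1 other gene, a pseudogene. The Rps12 word lies at chr10:23785913-23785962 (minus strand, exon 3) and is held by 9 other genes, 7 of them pseudogenes. The Rpl23a word lies at chr11:78181544-78181593 (minus strand, exon 3) and is held by 3 other genes. The Rpl38 word lies at chr11:114671750-114671799 (plus strand, exon 4) and is held by 2 other genes, both pseudogenes.

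Over the 84 members the median share of distinct words was 9.73%, and 29 had none. Members shared words with a median of 8 pseudogenes each and with as many as 120 in the case of Rpl7a. For the 75 mitochondrial ribosomal proteins, which make up the separate ribosome of mitochondria, the median share was 100%, 1 had none and the median number of pseudogenes was 0. The deposited levels were ordered along this property. Per kilobase of coding sequence, the median level was 266 normalized reads for the 29 members with no distinct word, 3531 for the 29 with a share above 0 and under 20%, 10628 for the 9 from 20 to under 50%, and 19780 for the 17 at 50% or more. Spearman's rho between the share and the level was 0.65 over 84 members, given as a description since they share the 3 libraries and the counting method. Of the 17 members under 100 normalized reads, 14 had no distinct word.

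**Figure D1:**
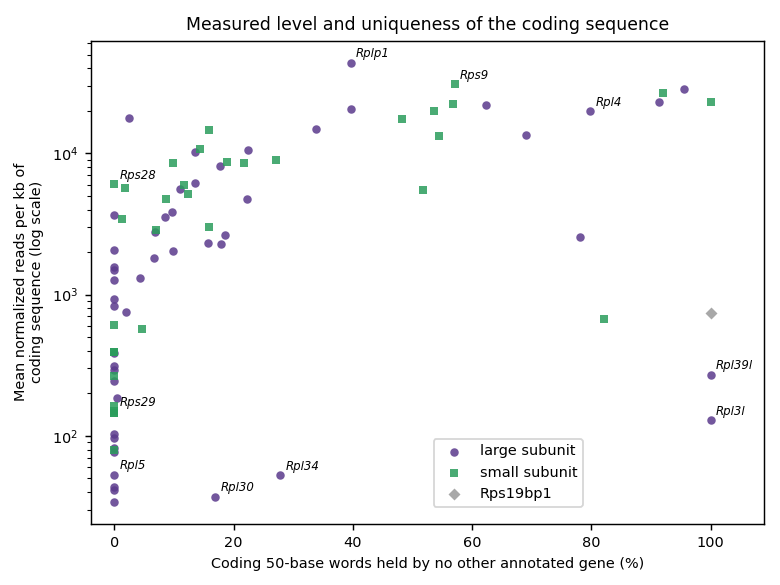
Each point is 1 of the 84 members. The horizontal axis gives the percent of its coding words of 50 bases held by no other annotated gene, and the vertical axis its mean level over the 3 libraries, in normalized reads per kilobase of coding sequence, on a log scale. Members with no distinct word have a median of 266 and those at 50% or more a median of 19780.

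Single members show the scale. Rpl5 and Rpl11 form with the smallest ribosomal RNA the particle that docks in the large subunit and can bind the ubiquitin ligase MDM2. Rpl5 had 47.6, 49.5 and 45.2 normalized reads at 0, 4 and 24 h, and Rpl11 had 16.8, 21.6 and 27.9, and neither had a distinct word. Rpl4 and Rpl23a both line the exit tunnel. Rpl4, with 79.7% of words distinct, was the most abundant member at 22143, 24607 and 27840 normalized reads, whereas Rpl23a, with none, had 14.01, 21.6 and 25.5. Both are present at 1 copy per ribosome. Whether the deposited values are the levels in the cells was not tested. High levels without distinct words also occurred: Rps28, with none, had 1089, 996 and 1680 normalized reads. The reverse occurred for Rpl34, of which 27.8% of words were distinct and which had 21.5, 12.7 and 21.4.

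The 0, 4 and 24 h libraries held 24825976, 20379236 and 25135476 recovered reads, and levels are reads divided by median-of-ratios size factors. The macrophage gene Cd68 had 21286, 13168 and 17754 normalized reads, whereas Lyz2, the reporter's locus, had 40.2, 20.3 and 17.3. The libraries differed in cell markers. The 12 classical monocyte markers summed to 153779, 616182 and 131551 at 0, 4 and 24 h. All 12 were at least 1.5-fold higher at 4 h than at 0 h, where 25.4% of all genes were. At 24 h versus 0 h, 9 of the 12 were at least 1.5-fold higher and 2 lower, where 13.7% and 19.2% of all genes were. Their median log2 ratio was then 1.67, so the sum at 24 h does not show the direction of most of these markers. The 13 measured markers of alveolar macrophages summed to 808574, 303074 and 471344. Of the 13, 11 were at least 1.5-fold lower at 4 h than at 0 h, where 23.7% of all genes were. The 10 measured neutrophil markers summed to 3517, 24605 and 7200, with Camp without a value at 0 h and Ly6g, Mpo and Elane without any. The 9 T and NK cell markers with a value summed to 159, 226 and 200, the 4 of B cells to 38.3, 114 and 282, the 8 of epithelium to 14938, 15526 and 15013, and the 4 of endothelium to 742, 1425 and 1196. The 7 interstitial macrophage markers summed to 10613, 21884 and 14641, and 6 general macrophage genes to 75763, 82776 and 70729. The 2 measured erythroid genes summed to 51.4, 1130 and 1769, and both were higher at 4 h and at 24 h than at 0 h. They were Beta-s, a beta globin, with 46.7, 1018 and 1664 normalized reads, and Alas2, of haem synthesis, with 4.67, 112 and 105. The 10 cell division genes summed to 13024, 6674 and 11060, and 8 of 10 were at least 1.5-fold lower at 4 h than at 0 h (23.7% of all genes). Xist had 12798, 5.08 and 0.822 normalized reads and the Y-linked Ddx3y had 3.74, 5070 and 1937, so the 0 h library stood apart from the other two in sex-linked transcripts. The part of cell makeup and of sex in the results below was not tested.

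Ribosomal protein messages took up a larger share of reads at 24 h than at the other times. They made up 1.10%, 0.953% and 1.74% of the reads of the 0, 4 and 24 h libraries, with 95% Clopper-Pearson intervals of 1.09 to 1.10%, 0.949 to 0.957% and 1.73 to 1.74%. These intervals, like all below, cover counting error only and leave out variation between animals and libraries, because no time point had a replicate. PCR copies were not told apart from separate molecules, so the intervals may be too narrow even for counting error. The large subunit took 0.601%, 0.515% and 0.914% of reads and the small subunit 0.493%, 0.437% and 0.820%. Both subunits were thus lowest at 4 h and highest at 24 h. The 10 most abundant members held 55.7%, 55.8% and 55.1% of the members' reads, so the concentration on few messages hardly differed between libraries. Counting only the 55 members with at least 1 distinct word, the shares were 1.06%, 0.920% and 1.68%.

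**Figure D2:**
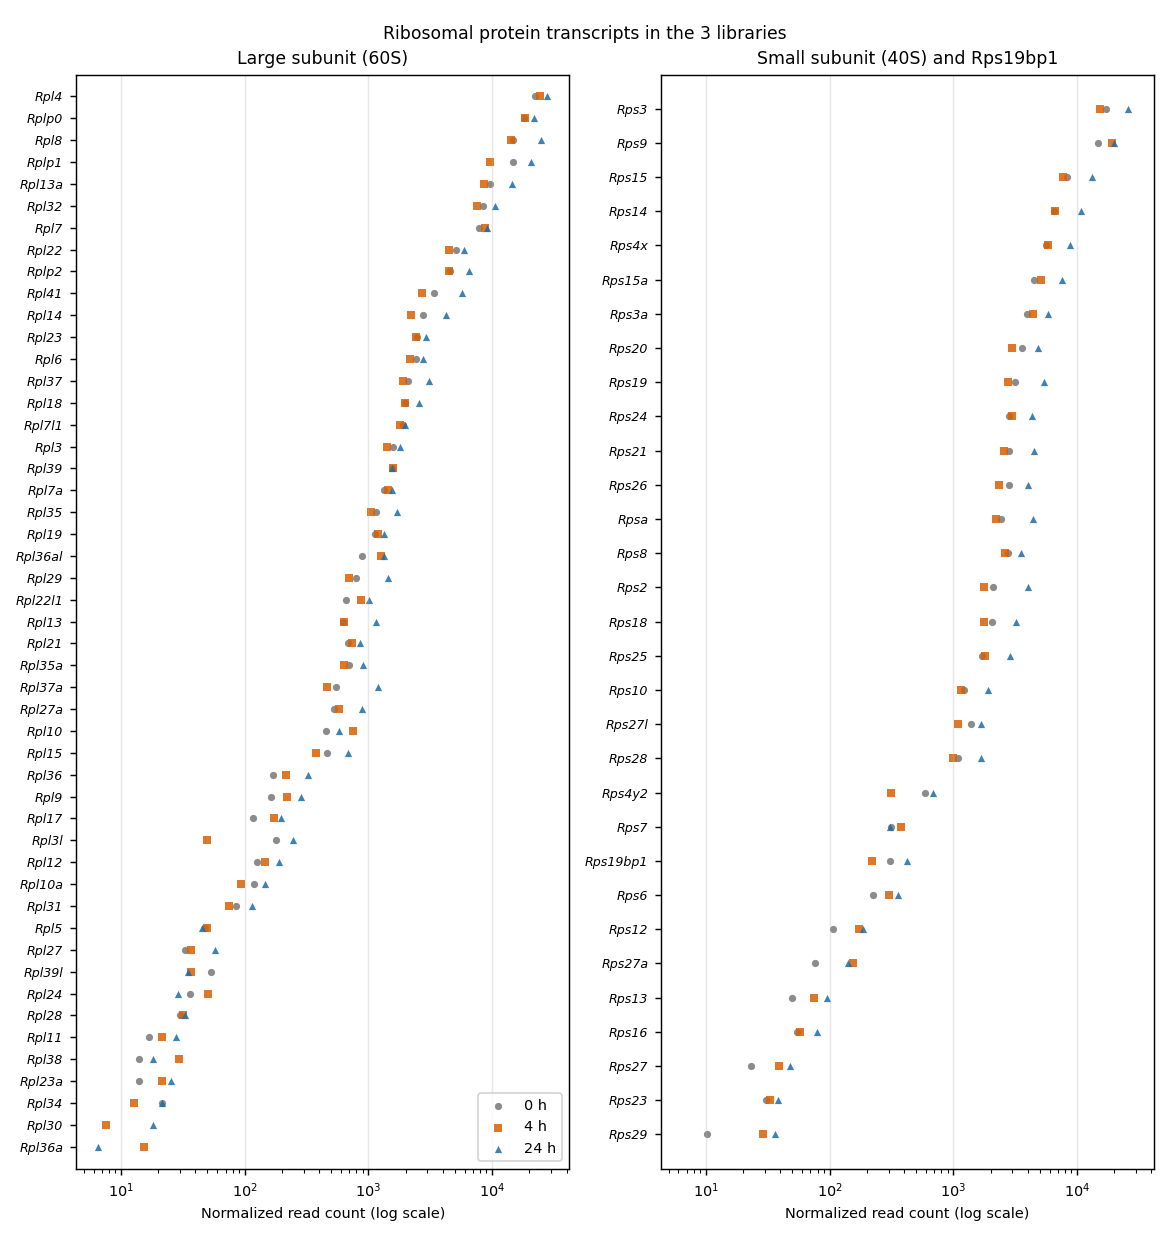
Normalized read count of 80 of the 84 members in the 3 libraries, on a log scale, with large subunit members on the left and small subunit members with Rps19bp1 on the right, sorted by mean. Circles are 0 h, squares 4 h and triangles 24 h, 1 library each. Triangles lie to the right for most members, and the 4 h squares of Rpl3l, Rplp1 and Rps4y2 lie apart on the left.

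At 4 h versus 0 h the members as a group stayed close to the centre of all genes. The median log2 ratio, with a pseudocount of 1 here and for all medians below, was -0.02 over 82 members and 0.00 over 12512 genes, with the middle 50% of members between -0.17 and 0.17, against -0.54 and 0.59 for all genes. Of the 82, 8 were at least 1.5-fold higher, where 25.4% of all genes were, and 4 were at least 1.5-fold lower, where 23.7% of all genes were. At least 2-fold higher were 3 (15.2% of all genes), and 1 was at least 2-fold lower (14.3% of all genes). Above and below a ratio of 1 stood 40 and 42 members, where 50.1% and 49.9% of all genes did. Under total-count scaling the median of all genes moves to -0.15 and that of the members to -0.18, with 22 above and 60 below, so the balance of direction at 4 h rests on the scaling. By counting error alone, the 95% interval of the ratio lay above 1 for 19 members, below 1 for 30 and across 1 for 33. This count was not made over all genes, so it has no background, and more reads give a narrower interval.

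The 8 members past 1.5-fold higher at 4 h were Rps29, Rpl38, Rps27a, Rps27, Rpl10, Rps12, Rpl23a and Rps13, and none of them had a distinct coding word. Rps29, a zinc-binding subunit of the small subunit, had 10.3, 29.2 and 36.2 normalized reads at 0, 4 and 24 h, from 11, 23 and 44 reads. It was low at 0 h, and its ratio at 4 h over 0 h was 2.84 (95% interval 1.33 to 6.46). Rps27a, which is made as a fusion with ubiquitin, had 76.6, 155 and 142 normalized reads, a ratio of 2.02 at 4 h over 0 h (1.52 to 2.71). Rpl10, which sits near the peptidyl transferase centre and joins last in assembly, had 455, 753 and 578, so 4 h was the highest time. Its ratio at 4 h over 0 h was 1.66 (1.47 to 1.87). Rps12, of the beak of the small subunit, had 107, 174 and 187, a ratio of 1.62 (1.25 to 2.09). Among members with a mean of at least 100, Rpl17, Rpl36al and Rpl9 came next at 4 h, with ratios of 1.49, 1.43 and 1.35 over 0 h.

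The 4 members past 1.5-fold lower at 4 h were Rpl3l, Rps4y2, Rplp1 and Rpl34. Rplp1, an acidic protein of the stalk that recruits translation factors, was the only core subunit among them with more than 100 normalized reads, at 14708, 9544 and 20668 at 0, 4 and 24 h. The 4 h library was the low one, at a ratio of 0.649 to 0 h (0.631 to 0.667). Rps19bp1 had 310, 221 and 422 normalized reads and was 1.40-fold lower at 4 h than at 0 h (1.16 to 1.70). Rpl10a, a mobile protein at the E site of the large subunit, had 120, 93.9 and 146, with an interval at 4 h versus 0 h that held 1 (1.27-fold lower, 0.948 to 1.72). Rpl34 rested on 23, 10 and 26 reads, and its interval also held 1 (1.69-fold lower, 0.775 to 3.98).

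At 24 h versus 0 h, 38 of 82 members were at least 1.5-fold higher, where 13.7% of all genes were, and 1 was at least 1.5-fold lower, where 19.2% of all genes were. The median log2 ratio was 0.56, a 1.47-fold difference, while that of all 12481 genes was 0.00. Of the 82 members 75 stood above a ratio of 1, where 49.8% of all genes did, and 7 below, where 50.2% did. The counting interval lay above 1 for 68, below 1 for 1 and across 1 for 13, a count again not made over all genes. Few ratios were large: 3 members were at least 2-fold higher, namely Rps29, Rpl37a and Rps27, where 4.95% of all genes were, and 0 were at least 2-fold lower, where 9.1% of all genes were. The small subunit had a median log2 ratio of 0.63 with 20 of 33 past 1.5-fold, and the large subunit 0.44 with 18 of 48. The authors' deposited p-value was below 0.05 for 0 members in each comparison. Of all genes, 5.16% were below it in the table of 4 h and 0 h, 3.16% in that of 24 h and 0 h, and 4.44% in that of 24 h and 4 h.

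The log2 fold changes of the authors' deposited tables are shrunken toward 0 and gave fewer calls at the same 1.5-fold bar. In the authors' deposited table for 4 h and 0 h, 2 of 82 members were past it as higher (Rps27a and Rps29), where 18.8% of all genes were, and 2 as lower (Rpl3l and Rps4y2), where 18.9% were. In the authors' deposited table for 24 h and 0 h, 7 of 83 were higher (Rpl13, Rpl29, Rpl36, Rpl37a, Rps2, Rps29 and Rpsa), where 4.75% of all genes were, and 0 lower, where 9.4% were. In the authors' deposited table for 24 h and 4 h, 26 of 84 were higher, where 19.9% of all genes were, and 0 lower, where 21% were.

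Among members with a mean of at least 100, the highest ratio at 24 h over 0 h was that of Rpl37a, a zinc-binding subunit of the large subunit. It had 544, 465 and 1190 normalized reads at 0, 4 and 24 h, so only the 24 h library was high, and its ratio at 24 h over 0 h was 2.19 (1.99 to 2.41). Rps2, at the entry of the messenger RNA channel, had 2107, 1776 and 4017, a ratio of 1.91 (1.81 to 2.01). Rpl36, with 171, 217 and 324, had a ratio of 1.89 (1.59 to 2.27). Rps27a, Rpl13 and Rpl29 followed with 1.86, 1.82 and 1.81. Rps27a was already high at 4 h, while Rpl13 (628, 637 and 1143) and Rpl29 (797, 699 and 1440) were high at 24 h only.

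Among the lowest ratios at 24 h versus 0 h, again with a mean of at least 100, were several close to 1. Rpl39, a small protein of the exit tunnel, had 1565, 1571 and 1542 normalized reads at 0, 4 and 24 h, nearly the same level at all times, with a ratio of 0.985 (0.922 to 1.05). Rps7 had 312, 377 and 308, a ratio of 0.988 (0.850 to 1.15). Rpl7l1 and Rpl6 had ratios of 1.03 and 1.14. Rpl6 had 2430, 2166 and 2772 normalized reads at 0, 4 and 24 h, lowest at 4 h.

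At 24 h versus 4 h, 37 of 84 members were at least 1.5-fold higher, where 26.2% of all genes were, and 3 were at least 1.5-fold lower, where 28.5% of all genes were. The median log2 ratio was 0.49, against 0.00 over 12684 genes, and 74 members stood above a ratio of 1, where 50.1% of all genes did. This comparison shares the 24 h library with the one against 0 h and the 4 h library with the first, so the 3 are not independent. At least 2-fold higher were 9 members (14.4% of all genes), and 1 was at least 2-fold lower (17.9% of all genes). Among members with a mean of at least 100, the highest ratios at 24 h over 4 h were those of Rpl3l at 4.95 (3.53 to 7.10), Rpl37a at 2.56 (2.28 to 2.88), Rps2 at 2.26 (2.13 to 2.40), Rps4y2 at 2.21 (1.91 to 2.56), Rplp1 at 2.17 (2.11 to 2.22) and Rpl41 at 2.10 (2.004 to 2.21). Rpl41, one of the shortest known eukaryotic proteins, had 3378, 2729 and 5741 normalized reads. The 3 lower members, Rpl36a, Rpl24 and Rpl38, rested on 12, 40 and 23 reads at 4 h and had no distinct word. With a mean of at least 100, the lowest was Rpl10, 1.30-fold lower at 24 h than at 4 h (1.17 to 1.46). Rps7 was 1.22-fold lower (1.05 to 1.43), the intervals of Rps27a and Rpl39 held 1, and Rpl7 (7897, 8844 and 9086 at 0, 4 and 24 h) had a ratio of 1.03.

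By place in the ribosome, the stalk proteins parted at 4 h versus 0 h, where only Rplp1 was past 1.5-fold. At 24 h versus 0 h all 4 were higher, with log2 ratios from 0.27 to 0.60. Rplp0, which anchors the stalk, had 18222, 18445 and 21974 normalized reads at 0, 4 and 24 h, and Rplp2, the partner of Rplp1, had 4531, 4474 and 6452. At 4 h versus 0 h their ratios were 1.01 (0.991 to 1.03) and 0.988 (0.945 to 1.03), beside 0.649 for Rplp1 (0.631 to 0.667). The 24 h ratios over 0 h were 1.21, 1.41 and 1.42 for Rplp0, Rplp1 and Rplp2. Rpl12, at the stalk base, had 126, 147 and 191 with no distinct word. At the peptidyl transferase centre, Rpl8 had 14895, 14128 and 24771 and Rpl3 had 1570, 1410 and 1804. The ratio of 24 h over 0 h was 1.66 for Rpl8 (1.63 to 1.70) and 1.15 for Rpl3, whose interval of 1.08 to 1.226 does not overlap. The 8 exit tunnel proteins had a median log2 ratio of 0.38 at 24 h versus 0 h, from -0.02 (Rpl39) to 0.86 (Rpl23a).

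On the messenger RNA path of the small subunit, 4 members at the exit, Rps14, Rps26, Rps28 and Rps3a, had log2 ratios between 0.50 and 0.70 at 24 h versus 0 h and between -0.27 and 0.14 at 4 h versus 0 h. Rps3 at the entry had 17168, 15353 and 25734 normalized reads at 0, 4 and 24 h, a ratio at 24 h over 0 h just below the 1.5-fold bar. Rps9, also of the small subunit, differed in that it was already high at 4 h, with 14830, 19117 and 20049. Its ratio was 1.29 at 4 h over 0 h (1.26 to 1.32) and 1.05 at 24 h over 4 h (1.03 to 1.07).

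Several members are known for roles beyond protein synthesis or in disease. Rpl13a had 9619, 8575 and 14485 normalized reads at 0, 4 and 24 h and a ratio of 1.51 at 24 h over 0 h (1.47 to 1.54). Rps19, the subunit most often mutated in human Diamond-Blackfan anaemia, had 3180, 2790 and 5431, a ratio of 1.71 (1.64 to 1.78). Rpsa, also known as the laminin receptor, had 2441, 2196 and 4400, a ratio of 1.80 (1.72 to 1.89). Rps6, the substrate of the S6 kinases, had only 226, 302 and 357 with no distinct word, a ratio of 1.58 (1.35 to 1.86). All 4 were highest at 24 h. Rps6 was higher at 4 h than at 0 h, the other 3 lower.

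The 7 paralogs had median log2 ratios of -0.36 (4 h versus 0 h), 0.27 (24 h versus 0 h) and 0.22 (24 h versus 4 h), and they differed among themselves. Rpl3l, known in mice as the form that replaces Rpl3 in heart and skeletal muscle, had 178, 49.5 and 245 normalized reads at 0, 4 and 24 h. It was 3.60-fold lower at 4 h than at 0 h (2.54 to 5.22), from 39 reads against 191, and all its words were distinct. Over the same libraries Rpl3 had 1570, 1410 and 1804. Rps4y2 had 594, 312 and 689 and was 1.90-fold lower at 4 h than at 0 h (1.64 to 2.21), while Rps4x, its X-linked relative, had 5607, 5824 and 8737. Rps27l, a p53 target and close relative of Rps27, had 1389, 1084 and 1675. It was 1.28-fold lower at 4 h than at 0 h (1.18 to 1.40).

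Rpl22l1, which stands in for Rpl22, had 656, 870 and 1011 normalized reads at 0, 4 and 24 h, and Rpl22 had 5134, 4476 and 5909. At 4 h the paralog was higher than at 0 h by a ratio of 1.32 (1.19 to 1.47), whereas Rpl22 had a ratio of 0.872 (0.835 to 0.910), and the intervals lie on opposite sides of 1. Of the coding words 15.8% were distinct in Rpl22l1 and 69.0% in Rpl22, and the part of shared reads in this contrast was not tested. Rpl36al, a near-identical paralog of Rpl36a, had 887, 1269 and 1337 with no distinct word, so its value is uncertain. Rpl7l1, known in humans as a factor of large subunit assembly, had 1916, 1795 and 1965, close to level over time. Rpl39l, the testis-enriched relative of Rpl39 in mice, had 53.2, 36.8 and 34.5. It was the 1 member at least 1.5-fold lower at 24 h than at 0 h, by 1.54-fold (1.02 to 2.36).

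The ratios at 4 h were also ordered by sequence. Over 82 members Spearman's rho between the share of distinct words and the log2 ratio was -0.59 at 4 h versus 0 h and -0.20 at 24 h versus 0 h, and over 84 it was 0.42 at 24 h versus 4 h, all given as descriptions. The 28 members with no distinct word had a median log2 ratio of 0.28 at 4 h versus 0 h, with 24 above 0, and the 17 with 50% or more had -0.15, with 2 above 0. The medians at 24 h versus 0 h were 0.61 and 0.44, both above 0, and 25 of 28 and 16 of 17 stood above 0. The higher level at 24 h was therefore seen in both sets, whereas the calls of higher at 4 h were all in the first. Members with no distinct word are also the less abundant ones, and the parts of abundance and of shared reads in this order were not told apart.

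**Figure D3:**
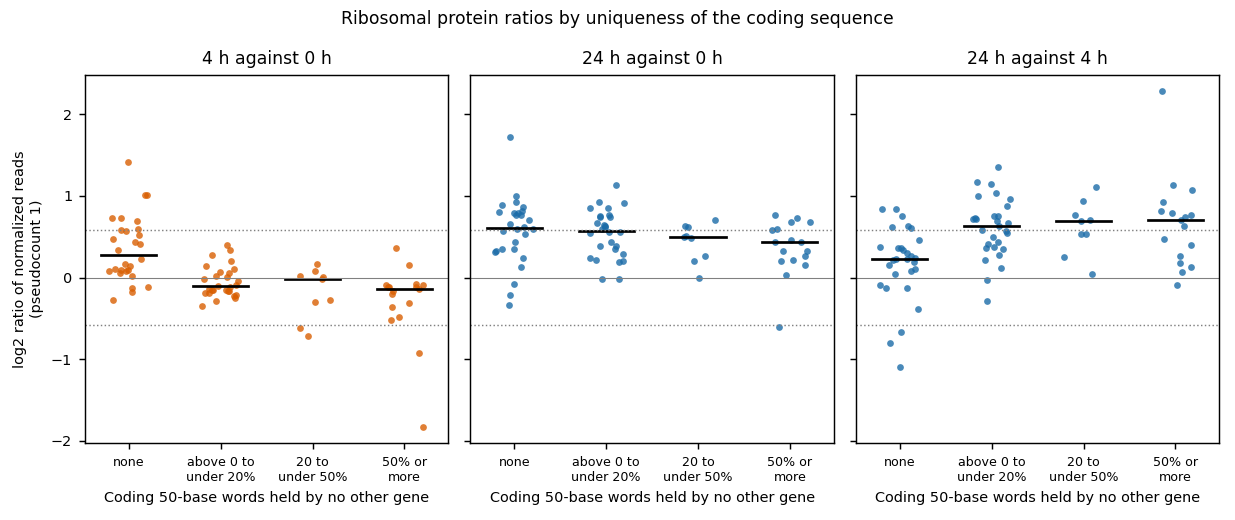
Log2 ratio of normalized reads, with a pseudocount of 1, of each member (points) in the 3 comparisons, in 4 classes by the percent of coding words of 50 bases held by no other gene. Black bars are class medians and dotted lines mark 1.5-fold. At 4 h versus 0 h the median was 0.28 with no distinct word and -0.15 at 50% or more, and at 24 h versus 0 h it was 0.61 and 0.44.

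Runs of C and T bases, the letters of a TOP run, were read near the annotated start sites. A C at the start itself was not required, so a run counted here is not by itself a TOP start. Promoter windows from 250 bases before to 50 bases after the start were taken from RefSeq (GRCm38.p6) for the 63 members with an entry. The windows below, from 40 bases before to 20 bases from the start site on, are those of 4 core subunits and a paralog with a run of 10 or more C and T bases within 15 bases of the start, and of Rpl3l and Rpl7l1, which lack one of that length. Capitals mark the longest run of C and T near the start.
Rplp2: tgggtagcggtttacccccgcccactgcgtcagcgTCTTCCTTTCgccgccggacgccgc
Rps6: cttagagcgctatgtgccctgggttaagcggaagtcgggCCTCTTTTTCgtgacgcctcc
Rpl38: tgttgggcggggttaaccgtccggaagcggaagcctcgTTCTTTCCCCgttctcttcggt
Rps18: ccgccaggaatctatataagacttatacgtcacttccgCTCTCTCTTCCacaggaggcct
Rpl22l1: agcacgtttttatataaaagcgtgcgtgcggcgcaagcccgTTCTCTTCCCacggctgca
Rpl3l: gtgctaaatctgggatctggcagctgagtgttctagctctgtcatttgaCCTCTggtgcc
Rpl7l1: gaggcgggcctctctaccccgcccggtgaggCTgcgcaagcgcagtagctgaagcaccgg

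The windows lie, in the same order, at chr7:141447611-141447670 (plus strand), chr4:86857348-86857407 (minus strand), chr11:114668540-114668599 (plus strand), chr17:33955646-33955705 (minus strand), chr3:28805468-28805527 (plus strand), chr17:24727786-24727845 (plus strand) and chr17:46782637-46782696 (minus strand). The run was 10 bases in Rplp2, Rps6, Rpl38 and Rpl22l1, 11 in Rps18, 5 in Rpl3l and 2 in Rpl7l1. Rpl3l has another annotated start site, not shown, with a run of 4. A run of at least 7 C and T bases within 15 bases of the start was present in 60.3% of the 63 members and 29.3% of 9183 genes with an entry, and a run of at least 10 in 38.1% and 11.3%. The motif CGGAAG, searched on both strands over the whole window, was present in 68.3% of members and 34.3% of all genes. CTCTTTC was present in 27.0% and 8.91%, TATAA in 28.6% and 16.4%, and GCCATCTT in 9.52% and 5.13%. A match is a description of the letters and not a bound site. The members were also split by what their windows held, as a description. For the run of 7 or more, the median log2 ratio at 24 h versus 0 h was 0.57 for 38 members with one and 0.55 for 25 without, and at 4 h versus 0 h it was 0.02 and -0.07. For CGGAAG the median at 24 h versus 0 h was 0.57 for 43 members with it and 0.45 for 20 without, and at 4 h versus 0 h it was -0.03 and 0.02. For CTCTTTC the order at 24 h versus 0 h was the other way, with 0.45 for 17 members with it and 0.59 for 46 without, and at 4 h versus 0 h it was 0.04 and -0.03.

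Ribosome genes outside the naming rule were read as well. Gnb2l1, which encodes the small subunit scaffold RACK1, had 24346, 22158 and 32650 normalized reads at 0, 4 and 24 h. Fau, which yields a small subunit protein, had 69.1, 93.9 and 90.4 normalized reads, from 74, 74 and 110 reads. Its ratio was 1.31 at 24 h over 0 h (0.965 to 1.78) and 0.962 at 24 h over 4 h (0.710 to 1.31). Both intervals held 1. The 75 mitochondrial ribosomal proteins had a median log2 ratio of -0.31 at 4 h versus 0 h, where the 82 cytosolic ones had -0.02. Of the 75, 18 were at least 1.5-fold lower and 1 higher, beside 23.7% and 25.4% of all genes, so the count of lower calls was near the background. The mitochondrial median at 24 h versus 0 h was 0.33 and that of the cytosolic ones 0.56. Here 11 of 75 were at least 1.5-fold higher, near the 13.7% of all genes, and 1 was lower, where 19.2% of all genes were. Above a ratio of 1 stood 70 of 75, beside 75 of 82 cytosolic members and 49.8% of all genes. The direction at 24 h was thus shared by both groups. At 24 h versus 4 h, 42 of 75 were at least 1.5-fold higher and 1 lower, where 26.2% and 28.5% of all genes were. The median log2 ratio was then 0.61, beside 0.49 for the cytosolic members. Mrps6 had 658, 215 and 655 normalized reads and Mrpl12 had 1084, 543 and 1279, both low at 4 h only. Mrpl52 (818, 1683 and 1514) was the 1 mitochondrial gene at least 1.5-fold higher at 4 h than at 0 h.

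The 20 other TOP messages, mostly translation factors, had median log2 ratios of 0.06 at 4 h versus 0 h and 0.36 at 24 h versus 0 h, with 6 of 20 at least 1.5-fold higher and 0 lower in the second, where 13.7% and 19.2% of all genes were. Gas5, a noncoding TOP transcript that hosts small nucleolar RNAs, had 1417, 3289 and 3058 normalized reads at 0, 4 and 24 h. Npm1, a nucleolar chaperone, had 2438, 3184 and 4206. The elongation factor Eef2 went the other way, with 54946, 45665 and 40588 at 0, 4 and 24 h. Eef1d, which recharges elongation factor 1, was the 1 TOP message at least 1.5-fold lower at 4 h than at 0 h, with 2841, 1575 and 3227.

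The genes that build ribosomes had medians near that of all genes. Of 40 assembly factors 8 were at least 1.5-fold higher and 3 lower at 4 h versus 0 h, beside 25.4% and 23.7% of all genes, with a median log2 ratio of 0.11. At 24 h versus 0 h 0 were higher and 6 lower, beside 13.7% and 19.2% of all genes, with a median of -0.04. Heatr1, a factor for early processing of ribosomal RNA, had 1772, 5908 and 1121 normalized reads at 0, 4 and 24 h, and Nop58, of the box C/D particles that methylate ribosomal RNA, had 1161, 3654 and 1143. Both peaked at 4 h. Nop2, a methyltransferase of ribosomal RNA, had 1329, 764 and 748. The 14 genes of RNA polymerase I and its factors, which make ribosomal RNA, had a median log2 ratio of 0.07 at 24 h versus 0 h. Its largest subunit Polr1a had 1229, 1286 and 533, and Taf1d had 561, 1240 and 768.

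Of 19 genes of the mTORC1 pathway, 9 were at least 1.5-fold lower and 4 higher at 24 h versus 0 h, where 19.2% and 13.7% of all genes were, with a median log2 ratio of -0.49. Mtor, its kinase, had 1441, 1310 and 727 normalized reads at 0, 4 and 24 h, and Tsc2, its inhibitor, had 1903, 1387 and 1004. The inhibitors Ddit4 (532, 432 and 1084) and Sesn1 (305, 399 and 566) were highest at 24 h. Larp1, the TOP-binding protein, had 4140, 8368 and 2611, highest at 4 h. The 4 higher genes at 24 h versus 0 h were Ddit4, Sesn1, Eif4ebp1 (1037, 1367 and 1705) and Maf1 (1536, 1120 and 2495), all known as inhibitors or repressors, while the 9 lower ones held both activators, such as Mtor, and inhibitors, such as Tsc2. Among 18 genes of ribosome quality control, 4 were at least 1.5-fold higher at 4 h versus 0 h and 0 lower, where 25.4% and 23.7% of all genes were. The highest were Ascc3 (802, 3274 and 897), which splits collided ribosomes, and Nemf (703, 2846 and 1335), which acts on stalled large subunits. At 24 h versus 0 h, 1 was higher (Nemf) and 4 were lower, beside 13.7% and 19.2% of all genes, the lowest being Gcn1l1 (1509, 1677 and 731), a sensor of collided ribosomes.

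**Figure D4:**
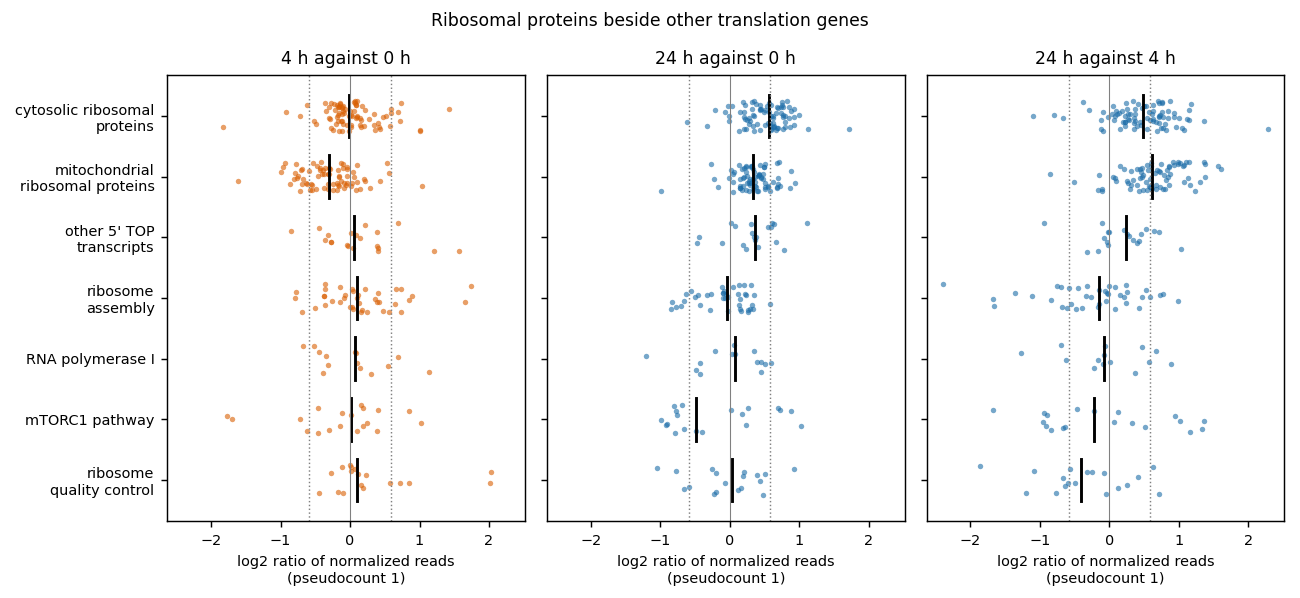
Log2 ratio of normalized reads, with a pseudocount of 1, in the 3 comparisons for the cytosolic ribosomal proteins and 6 other lists of translation genes. Each point is a gene, black bars are medians and dotted lines mark 1.5-fold. At 24 h versus 0 h the median was 0.56 for cytosolic ribosomal proteins, 0.33 for mitochondrial ones and -0.49 for the mTORC1 pathway.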

How the data were processed

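RNA was sequenced from GFP+ Ly6g- CD64+ lung macrophages at 0, 4 and 24 h, and samples were grouped by the labels' time point. The deposited signal values are the authors' gene read counts divided by a size factor, as the values show. Per the submitters' processing notes, DESeq2 and mm10 were used. What aligned and counted the reads is not given in the sources used here. Dividing each column by its smallest step gave whole reads for 100% of values (tolerance 0.001 reads). A column headed 4 h in the table of 24 h against 0 h held the 0 h reads in 12310 of 12310 shared genes, and this 1 column was given to no sample. The authors deposited shrunken log2 fold changes and unadjusted p-values, with no replicate behind them.

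Reads were scaled by size factors, the median of ratios across genes measured in all 3 libraries (1.07 at 0 h, 0.788 at 4 h, 1.22 at 24 h). Ratios of these levels carry 95% Clopper-Pearson intervals on the reads, for counting error only. The planned call was a plain ratio of at least 1.5-fold, and no test was possible with 1 library per time. Medians use a pseudocount of 1. Repeated genes (20) and unnamed entries were dropped. Named genes are the 6 highest and 6 lowest per comparison with a mean of at least 100, the paralogs, and members and list genes fixed by role. Rpl8, Rps9, Rpl3, Rpl22, Rpl23a, Rpl24, Rpl34, Rpl36a, Rpl38, Rps13, Rps27, Rps28, Rps29, Rps4x and Cd68, Lyz2, Xist, Ddx3y, Beta-s, Alas2 and the higher mTORC1 pathway genes were named after their values were seen. A few members are not reported here by name. Members and lists were chosen with earlier results of these data known. Steps were tested on simulated reads. Python 3.11.15, numpy 2.4.6, pandas 2.3.3 and scipy 1.17.1 were used.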

Additional observations from a re-analysis of the deposited data

How the results depend on the processing

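Direction and size depended on the scaling, the call and which members were kept. Medians at 4 h versus 0 h lay so near 0 that their sign turned: with core subunits only the members' median was 0.01 in place of -0.02 and the small subunit's 0.01 in place of -0.09, and the large subunit's (-0.01) was 0.01 with core subunits only or without the 5 members with another gene's description. The balance of calls at 4 h versus 0 h was 8 higher and 4 lower of 82 members. It became 4 and 6 with total-count scaling, 5 and 6 with upper-quartile scaling, and 0 and 4 for the 54 members with a distinct word. The medians at 24 h versus 0 h and 24 h versus 4 h stayed above 0 in the alternatives run. With total-count scaling (CPM) the median log2 ratio of members was -0.18 at 4 h versus 0 h, 0.73 at 24 h versus 0 h and 0.81 at 24 h versus 4 h (large subunit -0.16, 0.61 and 0.69, small subunit -0.25, 0.80 and 0.91). Members at least 1.5-fold higher were then 4 and 58 at 4 h versus 0 h and 24 h versus 4 h, and those lower 0 and 1 at 24 h versus 0 h and 24 h versus 4 h. The share of all genes past the bar is not given for total-count or upper-quartile scaling. Counts of members under either scaling therefore have no background. All genes shift with this scaling, by -0.15, 0.16 and 0.32, and relative to that shift the members' medians are -0.02, 0.56 and 0.49. Upper-quartile scaling gave medians of 0.69 at 24 h versus 0 h (large 0.58, small 0.76) and 0.73 at 24 h versus 4 h (large 0.62, small 0.83), with 5 higher at 4 h versus 0 h, and 0 and 1 lower at 24 h versus 0 h and 24 h versus 4 h.

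A pseudocount of 10 left 5 higher at 4 h versus 0 h and 0 lower at 24 h versus 0 h. A mean of at least 100 left 3 of 67 higher at 4 h versus 0 h, and 0 of 67 lower at 24 h versus 0 h and at 24 h versus 4 h. Core subunits alone gave 2 of 74 lower at 4 h versus 0 h, 0 of 74 lower at 24 h versus 0 h and shares of reads of 1.07%, 0.931% and 1.70%. Of all genes at the main setting, 25.4% were higher and 23.7% lower at 4 h versus 0 h. Lower at 24 h were 19.2% against 0 h and 28.5% against 4 h. With the 10 most abundant genes left out of the denominator the shares were 1.19%, 1.01% and 1.89%.

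The authors' deposited log2 fold changes, which are shrunken, gave at the same 1.5-fold bar 2 higher and 2 lower at 4 h versus 0 h, 7 and 0 at 24 h versus 0 h, and 0 lower at 24 h versus 4 h, with a median of 0.40 at 24 h versus 0 h (large 0.30, small 0.47). At 2-fold the plain ratios gave 3 higher and 1 lower at 4 h versus 0 h, 3 and 0 at 24 h versus 0 h, and 9 and 1 at 24 h versus 4 h.

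Other alternatives were added after the data were seen. Members with at least 1 distinct coding word gave 0 of 54 higher at 4 h versus 0 h (large subunit median -0.14), where 25.4% of all genes were. At 24 h versus 0 h they gave 22 of 54 higher, beside 38 of 82 for all members and 13.7% of all genes. At 24 h versus 4 h, 0 of 55 were lower (median 0.67, large 0.53, small 0.71), where 28.5% of all genes were. Their shares of reads were 1.06%, 0.920% and 1.68%. Those with 50% or more distinct gave 0 higher and 2 lower at 4 h versus 0 h (median -0.15, large -0.17), 5 higher at 24 h versus 0 h (0.44, large 0.33, small 0.51) and 10 higher and 0 lower at 24 h versus 4 h (0.71, small 0.73), out of 17 members. Leaving out the 5 members with another gene's description gave 7 higher at 4 h versus 0 h, 36 at 24 h versus 0 h and 35 at 24 h versus 4 h. Its counts were within 1.5 times the reported ones, and its medians moved by less than the counting interval's median half-width. The cause of these shifts was not tested, beyond the fewer members kept.

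No paired analysis was possible because each time point has 1 library. Depth limits the members under 100 normalized reads. The median distance from the log2 ratio to the end of its counting interval was 0.12 at 4 h versus 0 h, 0.10 at 24 h versus 0 h and 0.12 at 24 h versus 4 h.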
